A study of Homo sapiens with 35 samples.

Results

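SLAMF8, NFE2L3 and LINC02393 are 3 genes with almost no RNA-seq counts in untreated control U-87 MG cells and many counts after TWEAK treatment. They were selected on their counts in the control untreated and control TWEAK libraries, from a count table of 62696 genes of which 16879 passed a filter on low counts and were tested. The 3 genes passed that filter only through the groups in which they were high, so their difference between untreated and TWEAK-treated control cells is given as a description and was not tested. The values below follow the genes through all 12 RNA-seq libraries and through the peak lists of 20 ChIP-seq libraries.

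The cells were U-87 MG, a long-established line from a human glioblastoma, and TWEAK is a cytokine related to TNF. The 12 RNA-seq libraries (polyA RNA) held 3 each of control cells without TWEAK, control cells with TWEAK, ETS1 knockdown (KD) cells with TWEAK and NFKB2 KD cells with TWEAK, and the study's methods describe them as biological replicates. All cells were starved for 8 h before treatment, TWEAK was given at 10 ng/ml for 48 h and was replenished after 24 h. The KDs were made with CRISPR/Cas9, the labels of the RNA-seq and RNA Pol II libraries name no guide, and no untreated KD library was included here. ChIP-seq (chromatin immunoprecipitation sequencing) of p52 was done in control cells without and with TWEAK and in ETS1 KD cells with TWEAK made with guide 1 or guide 2, of ETS1 in control cells without and with TWEAK, and of RNA Pol II in control cells without and with TWEAK and in both kinds of KD cells with TWEAK, with 2 libraries for each group.

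TWEAK binds the receptor Fn14, which stabilises the kinase NIK, and NIK then drives the non-canonical arm of NF-κB signalling by having p100, the product of NFKB2, processed to p52. Together with RelB, p52 enters the nucleus and binds κB sites in DNA. ETS1 is the founding member of the ETS family of transcription factors, which bind sites with a GGA core. SLAMF8 encodes a cell surface receptor of the SLAM family that is known from macrophages and other myeloid cells. NFE2L3 encodes NRF3, a CNC-bZIP transcription factor that pairs with small MAF proteins and is related to NRF1 and NRF2, the regulators of the antioxidant and proteasome genes. LINC02393 is annotated as a long non-coding RNA and encodes no known protein.

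In the GENCODE annotation of hg38, SLAMF8 lies on the plus strand at chr1:159826811-159837492, NFE2L3 on the plus strand at chr7:26152198-26187137, and LINC02393 on the plus strand at chr12:127881616-127898645. The reference sequences at their starts are shown because p52 and ETS1 are sequence-specific factors and because the start of LINC02393 lay under a p52 peak. For SLAMF8 and NFE2L3 the stretch is the RefSeq promoter (GRCh38.p14, plus strand) up to the last base before the first annotated start, chr1:159826623-159826810 and chr7:26151948-26152197. For LINC02393 it is the whole p52 peak of control TWEAK replicate 2 (hg38, plus strand), chr12:127881436-127881731, which spans the start site. All are written 5′ to 3′, and capitals mark matches to the κB consensus or to the AP-1 consensus TGANTCA on either strand.
SLAMF8: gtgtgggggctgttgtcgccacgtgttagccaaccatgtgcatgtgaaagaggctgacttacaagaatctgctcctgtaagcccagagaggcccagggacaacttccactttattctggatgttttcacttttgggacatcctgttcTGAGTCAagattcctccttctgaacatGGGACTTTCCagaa
NFE2L3: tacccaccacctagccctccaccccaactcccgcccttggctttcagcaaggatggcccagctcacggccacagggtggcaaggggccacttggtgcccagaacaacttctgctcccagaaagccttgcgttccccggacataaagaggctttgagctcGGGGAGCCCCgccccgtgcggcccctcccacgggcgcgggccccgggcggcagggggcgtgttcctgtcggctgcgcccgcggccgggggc
LINC02393: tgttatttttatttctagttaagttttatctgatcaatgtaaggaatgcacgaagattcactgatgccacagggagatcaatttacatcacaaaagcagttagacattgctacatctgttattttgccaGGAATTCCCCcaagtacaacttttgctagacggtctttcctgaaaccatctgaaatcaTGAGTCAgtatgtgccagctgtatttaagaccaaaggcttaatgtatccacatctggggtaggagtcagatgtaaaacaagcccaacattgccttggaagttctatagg

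A κB match was present in the promoters of all 3 genes, from 250 bp before to 50 bp after the RefSeq start. It was GGGACTTTCC for SLAMF8, starting 76 bp upstream of the RefSeq start, GGGGAGCCCC for NFE2L3, starting 91 bp upstream and matching on both strands, and GGAATTCCCC for LINC02393, a match on the minus strand starting 52 bp upstream. Of 35116 RefSeq promoters of the same 300 bp length, 11.3% held such a match. SLAMF8 also held the AP-1 sequence TGAGTCA, starting 103 bp upstream, and LINC02393 held the same 7 bases starting 6 bp after the RefSeq start, where 7.71% of all promoters had an AP-1 match. None of the 3 promoters held the ETS core AGGAAG (33.6% of all promoters), CTTCCGG (10.3%) or the CNC-bZIP consensus TGACNNNGC (13.3%) on either strand. A match describes the letters in these windows and is no evidence of binding, and the absence of a match says only that these letters were not found there.

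**Figure D1:**
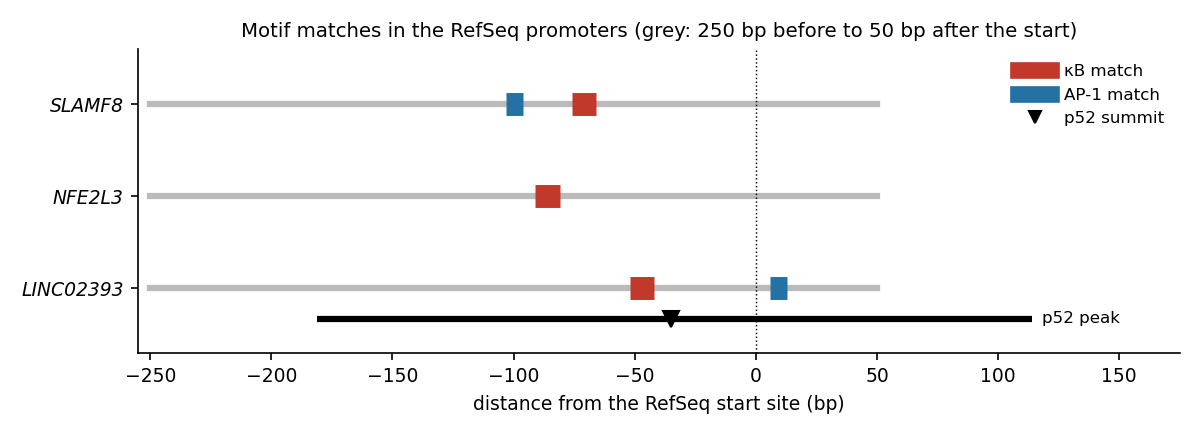
Positions of κB matches (red) and AP-1 matches (blue) by distance in bp from the RefSeq start of each gene, along the window from 250 bp before to 50 bp after it (grey). Each promoter has 1 κB match within 91 bp upstream of the start, and the p52 peak at LINC02393 (black bar, summit as a triangle) covers both of that gene's matches.

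The RNA-seq libraries held 28384201 to 40192606 counts each. The targeted genes followed the labels. ETS1 had 2005, 2938 and 3154 counts in TWEAK-treated control cells and 962, 1075 and 1321 in ETS1 KD cells, a log2 fold change of -1.23 (SE 0.15) with an adjusted p of 0.00112 by edgeR's quasi-likelihood test with Benjamini-Hochberg adjustment. NFKB2 had 6563, 11590 and 12468 counts in TWEAK-treated control cells and 2613, 3404 and 3451 in NFKB2 KD cells, a log2 fold change of -1.67 (SE 0.18) with an adjusted p of 0.00339 by the same test. Both KDs left transcript in every library. Of 7 markers of U-87 MG and of glial or mesenchymal cells, VIM reached 617646 counts in a library, CD44 92995, NES 5327 and OLIG2 61, while GFAP, SOX2 and S100B reached at most 13, 2 and 5 counts.

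SLAMF8 showed the highest level of the 3 genes. It had 1, 1 and 0 counts in untreated control replicates 1 to 3, and 50, 106 and 267 counts in TWEAK-treated control replicates 1 to 3. In CPM (counts scaled to library size with TMM factors), the TWEAK-treated control libraries stood at 1.79, 2.64 and 7.41, a mean of 3.95 ± 3.03 (SD, n = 3), against 0.0218 ± 0.019 (SD, n = 3) in untreated cells. The groups did not overlap, and the highest TWEAK-treated library was 4.13 times the lowest, so the size of the rise was carried unevenly by the libraries. Over the summed counts the CPM ratio was 190, with a 95% counting interval of 52.17 to 1571 that covers counting error only. The fitted log2 fold change was 7.30, and 6.47 without control TWEAK replicate 3.

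NFE2L3 had no count in any of the 3 untreated control libraries. It had 14, 19 and 32 counts in the TWEAK-treated control libraries, or 0.502, 0.473 and 0.888 CPM, a mean of 0.621 ± 0.232 (SD, n = 3). Replicate 3 was again the highest, and the other two were within 0.03 CPM of each other. Against a floor of 3 counts over the untreated group, NFE2L3 was at least 19.4-fold higher with TWEAK.

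LINC02393 had 0, 0 and 1 counts in the untreated control libraries and 14, 32 and 23 in the TWEAK-treated control libraries. Its CPM with TWEAK was 0.502, 0.797 and 0.638, a mean of 0.646 ± 0.147 (SD, n = 3), and here replicate 2 rather than replicate 3 was the highest. The CPM ratio over the summed counts was 61.9, with a 95% counting interval of 10.74 to 2479, which rests on 1 count without TWEAK. The groups did not overlap for any of the 3 genes, which their choice fixed, and 10.9% of all tested genes were also higher with TWEAK without overlap. In bulk RNA, a larger share of cells with the transcript and more transcript per cell cannot be told apart.

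Per kb of annotated exon, SLAMF8 stood at 1.24 ± 0.953 CPM per kb (SD, n = 3) in TWEAK-treated control cells, LINC02393 at 0.279 ± 0.0635 and NFE2L3 at 0.144 ± 0.0539. SLAMF8 was thus the most abundant of the 3 on a length-corrected scale, and its lowest TWEAK-treated control library (0.564 CPM per kb) was above the highest library of LINC02393 (0.344) and of NFE2L3 (0.206). Even with TWEAK, these were low levels beside ETS1, which stood at 10.8 ± 1.22 CPM per kb, and NFKB2, at 51.9 ± 9.91, in the same libraries. Antisense genes share part of these exons. For SLAMF8, 72.7% of exon bases overlapped exons of the antisense gene ENSG00000256029 and 34.6% those of SNHG28, and for NFE2L3 28.1% overlapped HNRNPA2B1, while LINC02393 had no such overlap. Whether the counting used strand is not given in the sources used here, so reads from these overlaps cannot be assigned for certain, and the per kb values of SLAMF8 and NFE2L3 are uncertain for that reason. ENSG00000256029 itself held 55 counts over the untreated control libraries and 68 over the TWEAK-treated ones, and HNRNPA2B1 94885 and 120170, neither of which passed the test (adjusted p = 0.966 and 0.714 by edgeR's quasi-likelihood test with Benjamini-Hochberg adjustment).

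**Figure D2:**
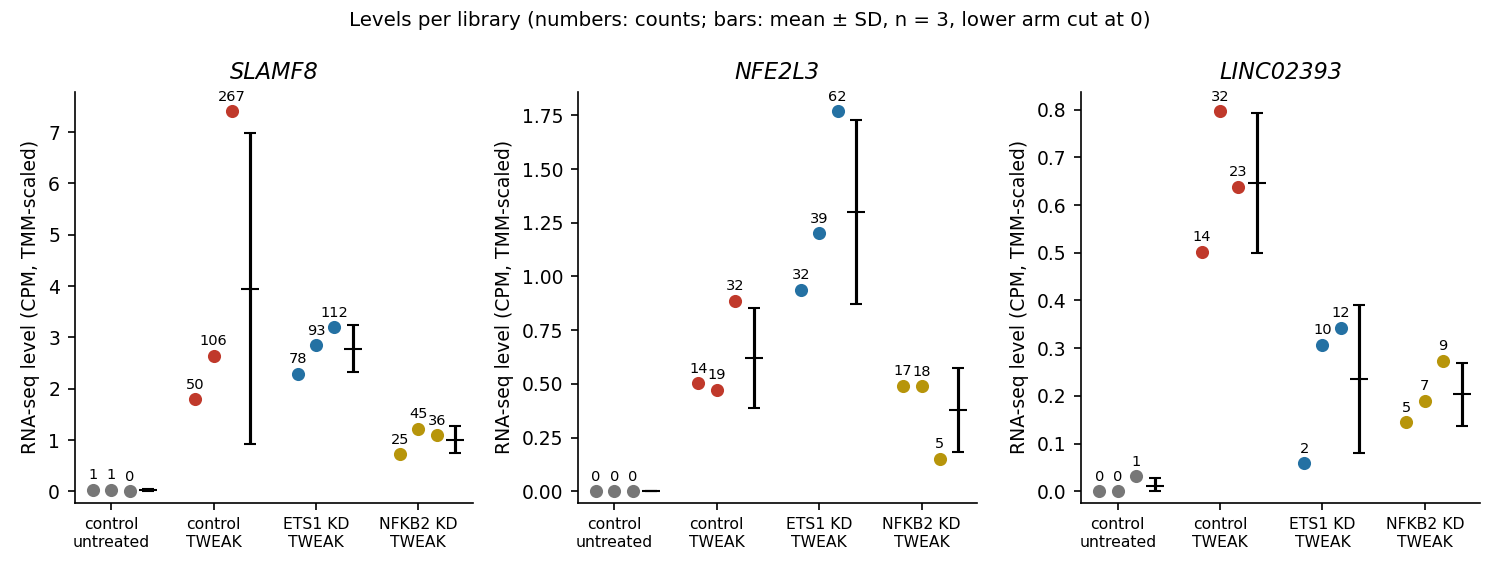
RNA-seq level in CPM of SLAMF8, NFE2L3 and LINC02393 in each of the 12 libraries, by group, with the raw count above each point and the mean ± SD (n = 3) as a bar beside the points. Untreated control libraries hold 0 or 1 count, the spread of SLAMF8 in TWEAK-treated control cells comes from 50, 106 and 267 counts, and the order of the groups differs between the genes.

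The KD libraries were not used to choose the genes. In ETS1 KD cells with TWEAK, SLAMF8 had 78, 93 and 112 counts (2.29, 2.85 and 3.2 CPM), NFE2L3 had 32, 39 and 62 (0.938, 1.2 and 1.77 CPM), and LINC02393 had 2, 10 and 12 (0.0587, 0.307 and 0.343 CPM). In NFKB2 KD cells with TWEAK, SLAMF8 had 25, 45 and 36 counts (0.724, 1.22 and 1.09 CPM), NFE2L3 had 17, 18 and 5 (0.492, 0.49 and 0.152 CPM), and LINC02393 had 5, 7 and 9 (0.145, 0.19 and 0.274 CPM). All 6 KD libraries thus held more counts of each of the 3 genes than any untreated control library. The lowest of them, 2 counts of LINC02393 in ETS1 KD replicate 1, was 1 count above the highest untreated value of that gene.

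Against untreated control cells, all 3 genes lay above the untreated range in ETS1 KD cells with TWEAK, as did 16.9% of all tested genes. SLAMF8 was higher by a CPM ratio of 130 (95% counting interval 35.61 to 1077), NFE2L3 by at least 40.7-fold against the floor of 3 counts, and LINC02393 by a ratio of 22 (3.591 to 905.6). In NFKB2 KD cells with TWEAK all 3 also lay above the untreated range, as did 5.32% of all tested genes, with a ratio of 47.5 for SLAMF8 (12.82 to 397), at least 11.9-fold for NFE2L3, and 18.8 for LINC02393 (3.024 to 777.7). The genes were chosen for having almost no counts in these untreated libraries, so the differences from them are given as a description and were not tested. Genotype and TWEAK change together in both comparisons, so their parts cannot be told apart.

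Set against TWEAK-treated control cells, the ETS1 KD gave different values for the 3 genes. These control libraries helped to choose the genes for being high there, which favours a fall in a KD. LINC02393 also passed the filter on low counts through them. The p-values of the 3 genes here are therefore no independent test. NFE2L3 was higher in all 3 ETS1 KD libraries than in any TWEAK-treated control library, with a log2 fold change of 1.06 (SE 0.42), LINC02393 was lower in all 3 without overlap, at -1.45 (SE 0.49), and the ranges of SLAMF8 overlapped, at -0.51 (SE 0.42). The adjusted p were 0.329, 0.22 and 0.755 by edgeR's quasi-likelihood test with Benjamini-Hochberg adjustment, so none of the 3 passed, as did 1.39% of all tested genes, and DESeq2 called none of them either. Without adjustment, NFE2L3 (0.029) and LINC02393 (0.0117) had an edgeR p under 0.05, 2 of the 3, as did 12% of all tested genes. Of all tested genes, 9.57% were higher and 10.8% lower in ETS1 KD cells without overlap. The estimate for SLAMF8 turned to 0.31 without control TWEAK replicate 3, the library with 267 counts, so its sign in this comparison rests on that library.

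The NFKB2 KD gave lower values for all 3 genes. SLAMF8 in NFKB2 KD cells was at 25% of its CPM in TWEAK-treated control cells (log2 fold change -1.96, SE 0.45), LINC02393 at 30.4% (-1.67, SE 0.50) and NFE2L3 at 61.5% (-0.70, SE 0.47). SLAMF8 and LINC02393 were below every TWEAK-treated control library, as were 3.82% of all tested genes, while NFE2L3 overlapped through 17 and 18 counts in NFKB2 KD replicates 1 and 2. None of the 3 passed edgeR's quasi-likelihood test with Benjamini-Hochberg adjustment (adjusted p = 0.409, 0.79 and 1), in which 5 of the 16879 genes, or 0.0296%, were called. Unadjusted, 2 of the 3 had a p under 0.05 in edgeR, SLAMF8 (0.000803) and LINC02393 (0.00561), as did 3.91% of all tested genes. DESeq2 called SLAMF8 (adjusted p = 0.0166) and not NFE2L3, gave LINC02393 no adjusted p, and called 36 of 35060 genes. In edgeR without a filter on low counts, SLAMF8 had an adjusted p of 1.87e-08, and 87 of 35060 genes were called. Without control TWEAK replicate 3, the log2 fold change of SLAMF8 was -1.11. Both KD comparisons use the same TWEAK-treated control libraries, which also helped to choose the genes for being high there. LINC02393 passed the filter on low counts through them as well. That choice favours a fall, so the p-values and calls of the 3 genes in this comparison are no independent test.

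Neither the ETS1 KD nor the NFKB2 KD libraries were used to choose the genes. SLAMF8 and NFE2L3 passed the filter on low counts in a fit of these 2 groups alone, whereas LINC02393 did not and entered the model of all groups through the TWEAK-treated control libraries, so its difference between the KDs is given as a description. SLAMF8 was higher in every ETS1 KD library than in any NFKB2 KD library, with a log2 difference of 1.45 (SE 0.45), and NFE2L3 likewise, at 1.76 (SE 0.44), whereas 9.79% of all tested genes were higher there without overlap. LINC02393 overlapped, at 0.22 (SE 0.56), a fitted 95% interval of -0.89 to 1.33. The adjusted p of SLAMF8 and NFE2L3 were 0.133 and 0.0773 by edgeR's quasi-likelihood test with Benjamini-Hochberg adjustment, so neither passed, as did 1.94% of all tested genes. Both had an unadjusted p under 0.05 in edgeR (0.00709 and 0.0023), as did 15.5% of all tested genes. In the edgeR fit of these 2 groups alone, neither passed (adjusted p = 0.0555 for SLAMF8 and 0.136 for NFE2L3). DESeq2 called SLAMF8 (adjusted p = 0.0421) and NFE2L3 (0.0176), with 758 of 35060 genes called. EdgeR without a filter on low counts also called both (6.29e-05 and 0.00126), with 781 of 35060 genes called. With any single library of these groups left out, neither passed edgeR's quasi-likelihood test. The adjusted p then ran from 0.2 to 0.347 for SLAMF8 and from 0.0854 to 0.291 for NFE2L3. Among the TWEAK-treated groups, SLAMF8 was thus lowest in NFKB2 KD cells, NFE2L3 had its highest mean in ETS1 KD cells, and LINC02393 had its highest mean in control cells. The ranges of NFE2L3 overlapped between control and NFKB2 KD cells, those of SLAMF8 between control and ETS1 KD cells, and those of LINC02393 between the KDs. In the edgeR model with the filter on low counts, none of these genes passed the adjusted threshold in any tested comparison among TWEAK-treated groups.

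**Figure D3:**
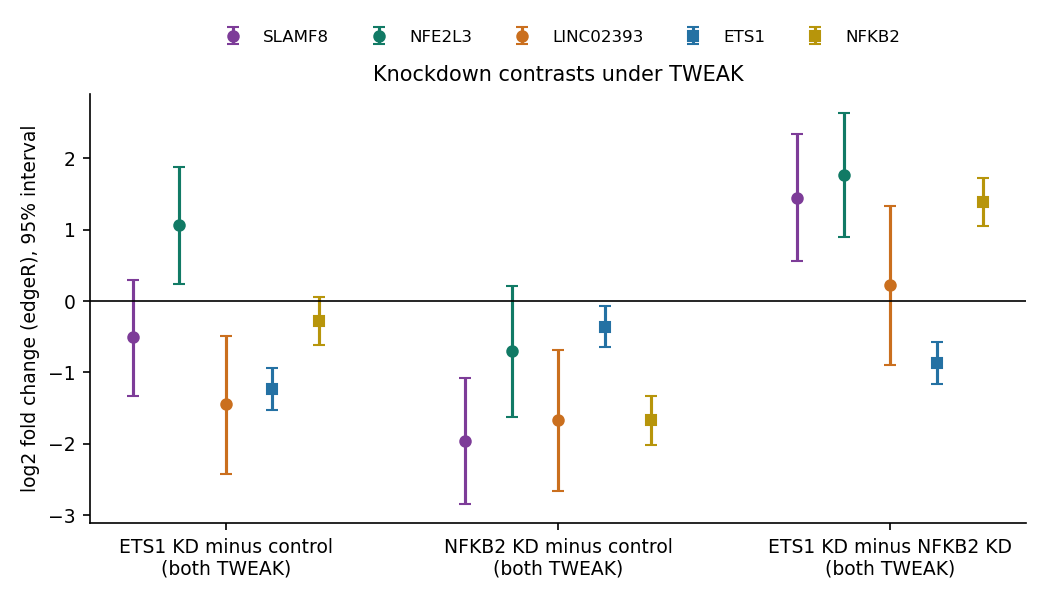
Log2 fold change by edgeR with its unadjusted 95% interval for SLAMF8, NFE2L3 and LINC02393 (circles) and for the targeted genes ETS1 and NFKB2 (squares) in 3 comparisons among TWEAK-treated cells. NFE2L3 is the gene with a positive value in ETS1 KD against control cells (1.06), and all 3 values are negative in NFKB2 KD against control cells.

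In the ChIP-seq lists, a peak was counted for a gene if it met the gene or lay within 15 kb of an annotated start site. The peaks and their fold enrichment and −log10 q-values are the authors' and were used as a description. For p52, SLAMF8 and NFE2L3 had no such peak in any of 8 libraries, and LINC02393 had 1, in control TWEAK replicate 2. That peak was 296 bp long, with its summit 34 bp upstream of the start of the main transcript, a fold enrichment of 4.944 and a −log10 q of 4.259. It ranked 9773 by q-value among the 11761 peaks of its library, and its fold was under the list's median of 7.004. The other control TWEAK library, with 3579 peaks, had no peak there, nor had either untreated library or any of the 4 libraries from ETS1 KD cells. The κB match began 17 bp before the summit, and 69.1% of the 300 bp windows around the summits of that library held a κB match.

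None of the 3 genes therefore had a p52 peak in both libraries of a group. In TWEAK-treated control cells, 13.7% of 16873 tested genes with an annotation had one in both libraries and 39.6% in either, and in both libraries of the other groups 0.0948% had one in untreated control cells, 6.09% in ETS1 KD guide 1 and 14% in ETS1 KD guide 2 cells. Farther out, the p52 summit nearest to the start of SLAMF8 in control TWEAK replicate 2 was 83734 bp downstream, 53 bp from the start of the gene ENSG00000279430, and p52 peaks at the same place were present in both libraries of ETS1 KD guide 2. At LINC02393, control TWEAK replicate 2 also had peaks with summits 50253 bp and 71164 bp upstream and 91725 bp downstream, and each of these places had a peak in at least 1 of the ETS1 KD libraries. At NFE2L3, the nearest p52 summit in control TWEAK replicate 2 was 49455 bp downstream, inside CBX3 and 92 bp from a start site of that gene, and ETS1 KD guide 2 replicate 1 had a peak 28959 bp upstream. Untreated control cells had no p52 peak within 100 kb of any of the 3 genes. The lists differed in length, from 452 and 714 peaks in untreated cells to 11761, and their read depth is unknown.

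No ETS1 peak met SLAMF8, NFE2L3 or LINC02393 or lay within 15 kb of their start sites in any of the 4 ETS1 libraries. In both libraries of TWEAK-treated control cells, 12.5% of tested genes had such a peak, and in both libraries of untreated control cells 8.85%. The ETS1 peak nearest to any of the 3 was 27866 bp downstream of the start of SLAMF8, in untreated control replicate 1, at the start of SNHG28. With TWEAK, the nearest ETS1 summit to SLAMF8 was 516599 bp away, that to NFE2L3 445488 bp and that to LINC02393 942415 bp.

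RNA Pol II gave no peak at SLAMF8 or within 15 kb of its start sites in any of 8 libraries, although its RNA was the most abundant of the 3. The nearest Pol II summits lay 22008 to 27871 bp downstream of its start, in untreated and TWEAK-treated cells alike. At LINC02393 the sole Pol II peak in that range was 10005 bp upstream, in NFKB2 KD replicate 2, with a fold enrichment of 5.194, where 78.7% of tested genes had a peak in either library of that group. In TWEAK-treated control cells, 72.1% of tested genes had a Pol II peak in both libraries.

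NFE2L3 had Pol II peaks in all 8 libraries, from 2 to 9 inside the gene, and the share of tested genes with a peak in both libraries was 63.5% in untreated control, 72.1% in TWEAK-treated control, 65.5% with ETS1 KD and 56% with NFKB2 KD. In every library but 1, all the peaks inside NFE2L3 also met HNRNPA2B1, an abundantly transcribed gene that overlaps its 3′ part on the other strand, and ChIP-seq does not tell the strands apart. The exception was control TWEAK replicate 1, where 2 peaks lay in the part of NFE2L3 clear of HNRNPA2B1, with summits 12927 and 15696 bp downstream of the start, fold enrichments of 4.776 and 7.134 and a covered length of 3395 bp. This library had the longest Pol II list, 44672 peaks against 11175 to 38307 in the other 7, and control TWEAK replicate 2 had no such peak. No Pol II summit in any library lay within 12 kb of the main start of NFE2L3.

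**Figure D4:**
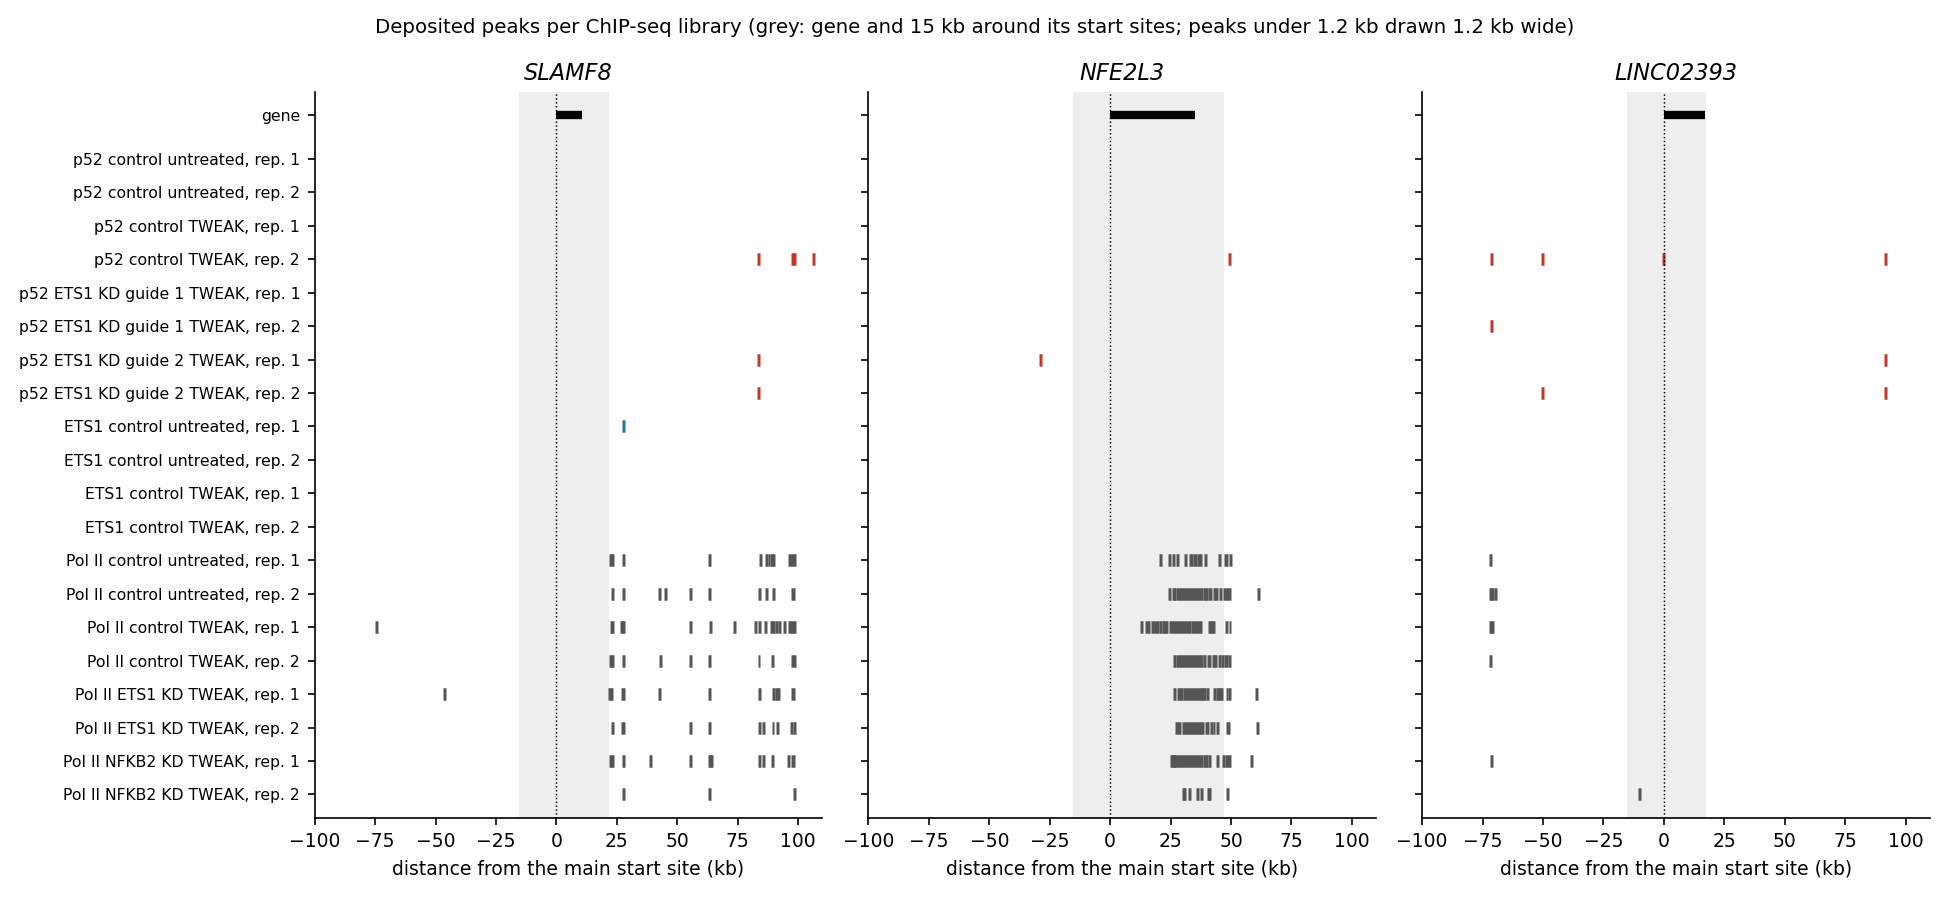
Deposited peaks of the 20 ChIP-seq libraries (rows; p52 red, ETS1 blue, RNA Pol II grey) by distance in kb from the main start site of each gene, with the gene as a black bar and the counted range shaded. The shaded range holds 1 p52 peak, at the start of LINC02393 in control TWEAK replicate 2, and no ETS1 peak. It holds Pol II peaks inside NFE2L3 and beyond its 3′ end in all 8 libraries, and 1 upstream of LINC02393 in NFKB2 KD replicate 2.

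SLAMF8 rose without its family. Of the other 10 genes of a list of the SLAM family and its SAP adaptors, CD48, LY9, SLAMF6 and SH2D1B had no count in any of the 12 libraries, 9 of the 10 had at most 10 counts in any library, and 1 was tested, SLAMF7. SLAMF7, a receptor known from plasma and natural killer cells, moved the other way in its values, from 1.33 ± 0.162 CPM in untreated to 0.711 ± 0.147 in TWEAK-treated control cells (SD, n = 3 each), which did not pass the test (adjusted p = 0.132 by edgeR's quasi-likelihood test with Benjamini-Hochberg adjustment). It was lower in ETS1 KD than in NFKB2 KD cells by the same edgeR test (0.306 ± 0.0969 against 0.85 ± 0.25 CPM, adjusted p = 0.0417), the opposite direction to the values of SLAMF8.

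Since SLAMF8 is known from myeloid cells, markers of leukocytes and myeloid cells were counted beside it. Of 14 such markers, 7 were tested and 1 was called higher with TWEAK in control cells, ITGAM (integrin αM), with 2 counts over the untreated and 116 over the TWEAK-treated control libraries. Against untreated control cells, edgeR called ITGAM higher in both KDs with TWEAK and CSF1R higher in ETS1 KD (adjusted p = 0.00206). It called CD33 lower in ETS1 KD than in NFKB2 KD cells (adjusted p = 0.0219), and no marker in either KD against TWEAK-treated control cells. Of the 14, 5 had at most 10 counts in any library. Among these were PTPRC (CD45), the general leukocyte marker, with at most 3 counts, and AIF1 and TYROBP with at most 1 each. CORO1A reached 99 counts in a library, FCER1G 33, CD163 19, CD14 15, and LAPTM5 and CD79A 14 each. None of the 14 was at 0 in all 12 libraries. The summed level of the 14 markers was 18.4 to 21.8 CPM in untreated and 24.9 to 28.5 CPM in TWEAK-treated control libraries, 26 to 28.1 CPM in ETS1 KD and 26.8 to 27.4 CPM in NFKB2 KD libraries. Most of it came from CSF1R and CD33, at 14.3 and 7.65 CPM in TWEAK-treated control cells. Of 3 endothelial markers, 2 were tested and none was called by edgeR in any of the 6 comparisons made.

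The relatives of NFE2L3 were present without TWEAK. Of 9 other CNC-bZIP factors, small MAF partners and KEAP1, all were tested and 1 was called in control cells, MAFF, a small MAF partner, which rose from 21 ± 1.56 to 39.9 ± 3.21 CPM (SD, n = 3 each, adjusted p = 0.000609 by edgeR's quasi-likelihood test with Benjamini-Hochberg adjustment). NFE2L1 (NRF1) stood at 442 CPM without and 505 CPM with TWEAK, and NFE2L2 (NRF2) at 101 and 111 CPM, against 0 and 0.621 CPM for NFE2L3. None of the 9 was called by edgeR between either KD and TWEAK-treated control cells or between the KDs. Against untreated control cells, edgeR called MAFF higher in both KDs with TWEAK and BACH2 lower in ETS1 KD (log2 fold change -1.20, adjusted p = 0.00263). Of 12 antioxidant response genes, which NRF2 is known to regulate, 11 were tested and none was called by edgeR with TWEAK in control cells, in either KD against TWEAK-treated control cells or between the KDs. Their median log2 fold change with TWEAK was 0.11, against 0.02 over all tested genes, and HMOX1 and NQO1 stood at 225 and 356 CPM with TWEAK. Against untreated control cells, edgeR called 1 of the 11, GCLC, lower in ETS1 KD with TWEAK (log2 fold change -0.62, adjusted p = 0.0353). In that comparison 2334 of all 16879 tested genes were called.

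Genes of the NF-κB pathway were measured in the same libraries. Of 12, all tested, 7 were called higher with TWEAK in control cells and none lower, with 1.55% of all tested genes called higher. They were NFKB2, RELB, NFKBIA and NFKBIE, which encode subunits and inhibitors of NF-κB, BIRC3 and TRAF1, which act at TNF receptors, and MAP3K14, which encodes NIK. BIRC3 went from 3.34 ± 1.29 to 174 ± 25.6 CPM and NFKBIE from 7.64 ± 1.29 to 35.5 ± 2.44 CPM (SD, n = 3 each), so that both had a measured level without TWEAK, unlike the 3 genes described here. In NFKB2 KD against TWEAK-treated control cells, 2 of the 12 were called lower, NFKB2 itself and TRAF1, with 0.0296% of all tested genes called. In ETS1 KD against the same cells none was called by edgeR, with 1.39% of all tested genes called. Between the KDs, 2 of the 12 were called higher in ETS1 KD cells, with 1.94% of all tested genes called. These were NFKB2 and BIRC3 (log2 fold change 1.86, adjusted p = 0.0154 by edgeR's quasi-likelihood test).

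The genes with the most similar pattern over the 12 libraries were listed by Pearson's r of log2 CPM, as a description. For SLAMF8 they were MAP3K5 (r = 0.979), NFKBIE (0.978), TNFRSF9 (0.974), ZNF697 (0.974) and IRAK2 (0.969). For NFE2L3 they were IL1B (0.982), ENSG00000278266 (0.979), ALDH1A3 (0.975), MMP9 (0.971) and NOM1 (0.971). For LINC02393 they were GPR176 (0.965), KLF4 (0.946), RELB (0.943), CCL3 (0.937) and MTHFD1L (0.936). These lists share no gene, and among the 3 genes themselves r was 0.935 for SLAMF8 with NFE2L3, 0.854 for SLAMF8 with LINC02393 and 0.723 for NFE2L3 with LINC02393. The 12 points fall into 4 groups with the untreated libraries far below the rest, so a high r reflects largely that step, and the points share their libraries and depth. NFE2L3 and its neighbours in pattern IL1B and ALDH1A3 had their highest mean in ETS1 KD cells (29.7 CPM for IL1B against 23.9 in TWEAK-treated control cells, 726 CPM for ALDH1A3 against 494), while RELB and CCL3, like LINC02393, had theirs in TWEAK-treated control cells (56.3 and 3.79 CPM). The neighbours were picked for their pattern over these same libraries, so a shared order of the groups follows in part from that choice.

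Around the 3 genes, within 200 kb of their start sites, TWEAK called no other gene in control cells. SLAMF8 had 23 annotated neighbours, of which 6 were tested, NFE2L3 had 6, of which 2 were tested, and LINC02393 had 8, of which none passed the filter on low counts. None of the 8 tested neighbours was called by edgeR in either KD against TWEAK-treated control cells or between the KDs either. Against untreated control cells, 2 of the 8, both near SLAMF8, were called in ETS1 KD cells with TWEAK and none in NFKB2 KD cells with TWEAK. Of all 16879 tested genes, 2334 were called in the first of these comparisons and 102 in the second. The 2 neighbours called were TAGLN2 (log2 fold change 0.59, adjusted p = 0.0106 by edgeR's quasi-likelihood test) and ENSG00000290105 (-0.87, 0.0217), named after their values were seen.

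Few genes shared the pattern. A screen for at most 30 counts over the untreated control libraries, at least 100 over the TWEAK-treated ones and a CPM ratio of at least 10 kept 11 genes, of which SLAMF8 had the highest CPM with TWEAK, followed by IL34 (3.81 CPM), ENSG00000255921 (2.78 CPM) and IL32 (2.43 CPM). NFE2L3 and LINC02393 were not among them because they had 65 and 69 counts over the TWEAK-treated libraries. A second screen, set after the counts were seen, for at most 3 counts without and at least 50 with TWEAK, kept 7 genes, which were SLAMF8, NFE2L3, LINC02393, CST1, MMP9, ITGAM and LINC01857. In ETS1 KD and NFKB2 KD cells these had their own levels. MMP9, a matrix metalloprotease, had 63, 63 and 84 counts in ETS1 KD and 16, 17 and 6 in NFKB2 KD libraries, an order like that of NFE2L3, whereas ITGAM had 33, 31 and 36 against 46, 56 and 63. CST1, which encodes cystatin SN, had 12, 4 and 17 counts in ETS1 KD and 21, 58 and 76 in NFKB2 KD libraries. LINC01857 had 17, 10 and 12 counts against 3, 10 and 7, low in both as LINC02393 was.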

How the data were processed

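RNA-seq and ChIP-seq libraries of U-87 MG cells were grouped by their labels. For RNA-seq, the authors used Trimmomatic, STAR (hg38) and featureCounts, per the labels, and deposited raw counts for each gene. Annotation and strand setting are not given in the sources used here, and the labels and the paper's methods name different library kits. For ChIP-seq, the authors mapped reads with Bowtie2 and called peaks per library with MACS2, and deposited for each peak the fold enrichment ratio and the −log10 p- and q-values, which were used only to describe and rank peaks. Inputs were not analysed here.

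Genes that passed filterByExpr entered 1 edgeR 4.0.16 model of the 4 groups (R 4.3.3, TMM), with two-sided quasi-likelihood F-tests, Benjamini-Hochberg adjustment and calls at an adjusted p under 0.05. The smallest p of an exact permutation of 3 against 3 libraries is 0.10, so none was used. Comparisons of the 3 genes with untreated cells, also those of the KDs for which a test had been planned, are given without a test, because the untreated libraries helped to choose the genes. The KDs were tested against TWEAK-treated control cells. Those libraries also helped to choose the 3 genes, so the p-values of these genes there are no independent test. Log2 CPM used a prior count of 2. Ratios of counts carry exact 95% counting intervals, and ratios to 0 counts used a floor of 3 counts over the group. Intervals and floors cover counting error only. DESeq2 1.42.0, its size factors, no filter, 2-group fits, a replicate block and leaving out each library were alternatives. No replicates agreed within sampling noise. The test code was tested on simulated data. Peaks were counted at the gene (GENCODE v44, overlap of at least 1 bp) or within 15 kb of a start site, and motifs were matched in RefSeq promoters (GRCh38.p14, found for all 3 genes) with Python 3.11.15 and samtools 1.23.1. Named genes are the 3 genes, the KD targets, the 5 genes most alike in pattern, genes of fixed lists that passed the test or are most abundant, and genes kept by the screens. The genes, lists and tests were chosen with earlier results of these data known.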

Additional observations from a re-analysis of the deposited data

How the results depend on the processing

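Over the RNA-seq alternatives that kept all libraries, 93 of 114 values kept their direction and their side of the threshold or, for values with no test, moved by less than the replicate spread, and for counts of genes stayed within 1.5 times. With DESeq2, the log2 fold change of NFE2L3 with TWEAK in control cells was 6.71 in place of 7.40, and in ETS1 KD against untreated control cells 7.78 in place of 8.46. Past the threshold came SLAMF8 in NFKB2 KD against TWEAK-treated control cells (-1.95 in DESeq2, -1.93 in edgeR without a filter), SLAMF8 between the KDs (1.45 and 1.43) and NFE2L3 between the KDs (1.77 and 1.74). The comparison with TWEAK-treated control cells used libraries that helped to choose SLAMF8, so its calls are no independent test. DESeq2 gave no adjusted p for LINC02393 in NFKB2 KD against TWEAK-treated control cells or between the KDs, and in the fits of 2 groups LINC02393 did not pass the filter between the KDs or for either KD against untreated cells, nor NFE2L3 for NFKB2 KD against untreated cells. The cause of these differences was not tested.

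Genes called in TWEAK against untreated control cells numbered 520, 877 by DESeq2 and 859 without a filter. They numbered 234, 476 and 469 in ETS1 KD and 5, 36 and 87 in NFKB2 KD against TWEAK-treated control cells (2 with 2 groups), 327, 758 and 781 between the KDs (104 with 2 groups), and 102, 283 and 278 in NFKB2 KD against untreated control cells (18 with 2 groups).

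Leaving out a library in turn gave ranges. LINC02393 with TWEAK in control cells ran from 5.02 to 7.47, SLAMF8 in ETS1 KD against TWEAK-treated control cells from -0.85 to 0.31, LINC02393 between the KDs from -0.16 to 0.65, turning negative without ETS1 KD replicate 2 or 3 or NFKB2 KD replicate 1. Against untreated control cells, SLAMF8 ran from 6.25 to 7.17 in ETS1 KD and from 4.83 to 5.75 in NFKB2 KD, and LINC02393 from 3.56 to 6.0 and from 3.37 to 5.81. Counts of genes called ran from 171 (without control TWEAK replicate 3) to 405 for TWEAK, 102 to 148 and 2 to 4 for ETS1 KD and NFKB2 KD against TWEAK-treated control cells, 76 to 561 between the KDs, and 1179 to 2109 and 38 to 246 for ETS1 KD and NFKB2 KD against untreated control cells.

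Same-numbered libraries correlated in their deviations from -0.304 to 0.492. Libraries with different numbers were not compared in this way, so these values cannot decide whether the numbers pair the libraries. With the number as a replicate block, no call on the 3 genes in the comparisons among TWEAK-treated cells changed, and 657 genes were called with TWEAK in control cells.

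For peaks, 1 gene (LINC02393) had a p52 peak with TWEAK in either library against 0 in both. For RNA Pol II, 2 genes in place of 1 had a peak in both libraries of each of the 4 groups within 50 kb, and 2 in either NFKB2 KD library within 15 kb, while at a −log10 q of at least 5 it was 0 in NFKB2 KD cells. At the depth of these libraries, levels of 1 to 20 counts carry counting errors as large as many of the differences given.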
